A study of Mus musculus with 14 samples.

Results

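The genes described here take up and burn fatty acids in the mouse heart or use ketone bodies there: 39 named genes of 55487 in the count table. They were chosen by symbol, and each symbol was matched to its Ensembl identifier through the GENCODE M21 annotation. Counts had been measured by RNA sequencing of whole hearts, in 14 libraries from male C57BL/6 mice. The untreated animals were either wildtype or had lost Sqstm1, which encodes the autophagy receptor p62, in cardiac muscle (Myh6-Cre-Sqstm1fl/fl). There were 3 wild-type and 3 knockout libraries at 2 months of age and 4 of each genotype at 15 months. The Myh6 promoter drives Cre in cardiac muscle cells, so other heart cells keep the gene. The labels do not say whether the wild-type animals carried Cre or floxed alleles. They also name no animal for a library, so the tests measure the spread between these samples, which may in part be technical. Where hearts are counted below, each stands for a library. In a whole-heart library, fewer cells of a type and less RNA per cell cannot be told apart.

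The heart covers most of its energy need from fatty acids. Lipoprotein lipase frees them from circulating triglyceride, Cd36 and Slc27a1 help them across the membrane, Fabp3 carries them in the cytosol and Acsl1 couples them to coenzyme A. The carnitine shuttle brings long chains into mitochondria, where the beta-oxidation spiral shortens them and passes electrons to the electron transfer flavoprotein. Many of these genes are targets of the nuclear receptor PPARα, with its coactivator PGC-1α (Ppargc1a) and the receptor ERRα (Esrra). Ketone bodies made in the liver enter heart mitochondria and are burned through Bdh1 and Oxct1.

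Library totals ranged from 20218992 to 30404416 counts, of which 27.5 to 46.0% lay on mitochondrially encoded genes. Sqstm1 stood at 139 to 238 CPM (counts scaled to the library size, adjusted with the TMM factors of edgeR) in wild-type hearts and at 14.6 to 37.0 CPM in knockout hearts; no library went against its label. All 13 cardiac muscle markers were detected in every library, with a summed level of 67212 to 117865 CPM, while the liver gene Alb reached at most 0.103 CPM and the lung gene Sftpc was at 0. Wild-type replicate 1 at 2 months stood apart in tissue content: its atrial gene Myl7 stood at 638 CPM against at most 58.1 CPM elsewhere, and its fat cell gene Adipoq at 6.75 CPM against at most 1.51 CPM. The libraries also differed in how the level of a gene depended on its exon length. The slope of relative log2 CPM on log2 exon length was negative in all 6 libraries at 2 months, from -0.148 to -0.007. At 15 months it was positive in 6 libraries and negative in wild-type replicate 2 (-0.059) and knockout replicate 1 (-0.072). Slope and age were thus largely confounded, and a fit with the slope as a covariate cannot separate them.

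All 39 members passed the filter on low counts. Per kilobase of exon (CPM divided by exon length, mean over the 14 libraries) the highest level belonged to the carrier Fabp3, at 2536, followed by the transporter Cd36 at 522, the isomerase Ech1 at 445, Lpl at 427 and the long-chain dehydrogenase Acadl at 424. The muscle form of carnitine palmitoyltransferase 1, Cpt1b, stood at 14.9 and the form best known from liver, Cpt1a, at 5.74. Of the ketone enzymes, Oxct1 stood at 223 and Bdh1 at 19.4. The lowest levels were those of the lipase inhibitor Angptl4 (3.40) and the cytosolic thioesterase Acot1 (3.33). Together the members took 2.48 to 2.97% of the counts outside mitochondrially encoded genes at 2 months and 2.97 to 4.02% at 15 months. The highest 2 shares, 3.85 and 4.02%, were those of knockout replicates 3 and 4 at 15 months.

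**Figure D1:**
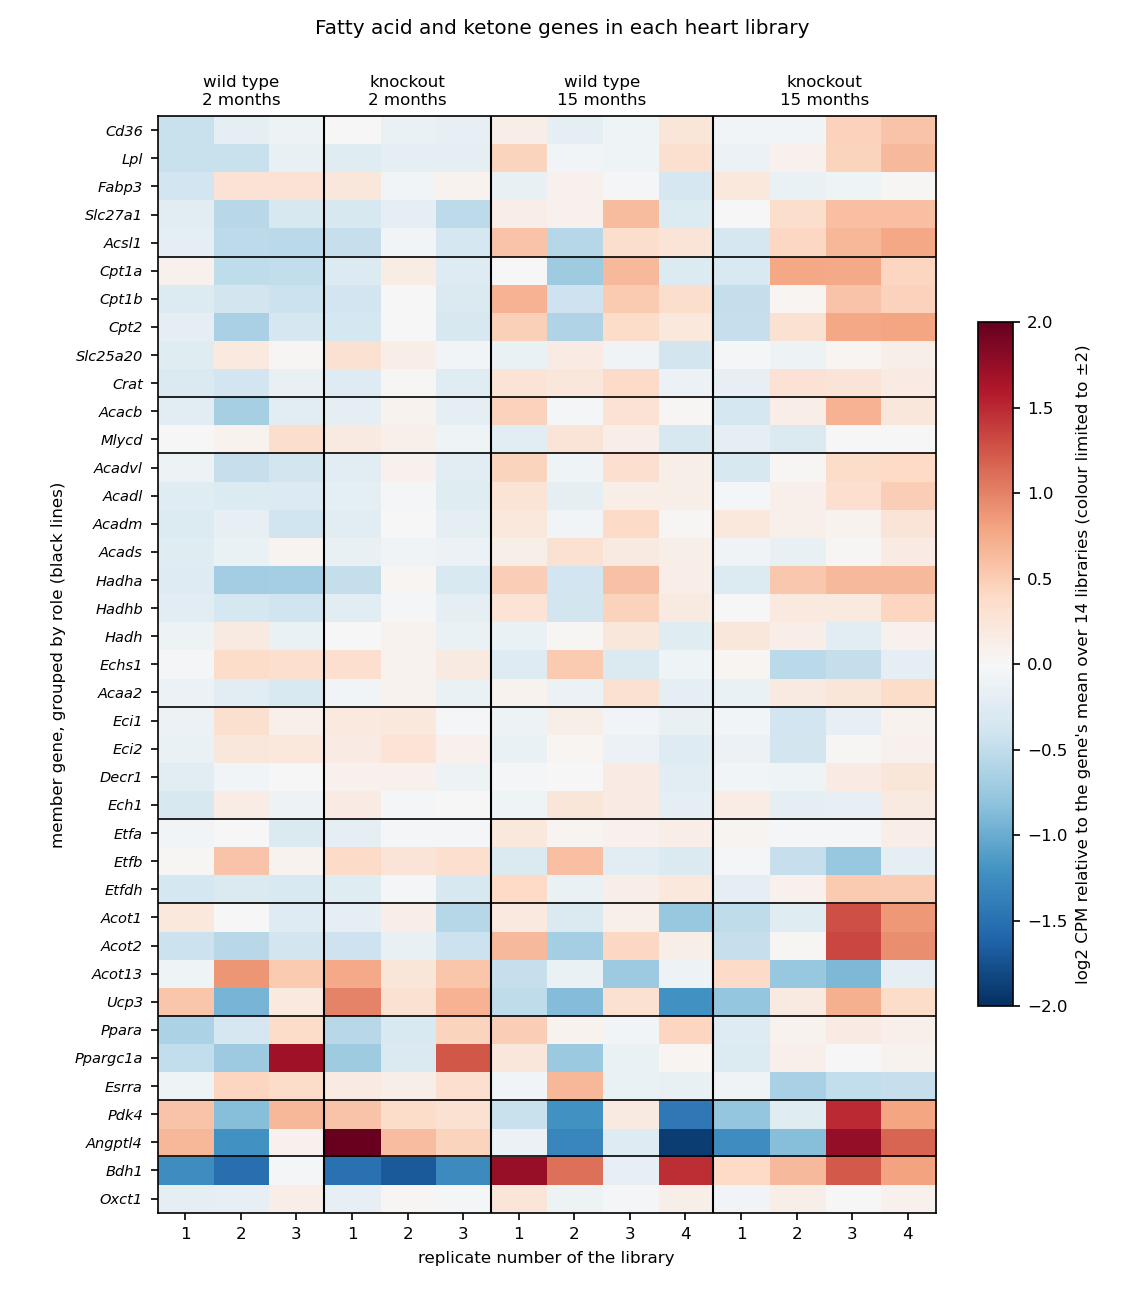
Level of each of the 39 member genes in each of the 14 libraries, as log2 CPM relative to the gene's mean over all libraries (colour, limited to ±2). Rows are genes grouped by role between black lines, and columns are libraries grouped by genotype and age. Bdh1 is the row with low values at 2 months and high values at 15 months, apart from wild-type replicate 3, which lies near the row's mean at both ages. Knockout replicates 3 and 4 at 15 months are high in many rows.

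Age was the first comparison: 15 against 2 months within each genotype. Bdh1, the mitochondrial enzyme that interconverts beta-hydroxybutyrate and acetoacetate, was the member that rose, in wild-type hearts and in knockout hearts alike. No other member passed an adjusted p of 0.05 (edgeR quasi-likelihood test, Benjamini-Hochberg over 15528 genes). That is 1 of 39 members called in each genotype, where 1.04% of all genes were called in wild type and 2.25% in knockout hearts. Without adjustment, 14 members were higher and 1 lower (Acot13) at p below 0.05 in wild type, and 9 were higher and 4 lower (Acot13, Echs1, Esrra and Etfb) in knockout hearts. Over all genes 11.1% were higher and 12.7% lower by that rule in wild type, and 12.6% and 14.1% in knockout hearts. The members' median log2 fold change was 0.24 in wild type, against -0.02 over all genes tested, and 0.16 in knockout hearts, against 0.01. Above 0 lay 24 of 39 members in wild type (48.3% of all genes) and 26 in knockout hearts (50.6%). The sign was above 0 in both genotypes for 23 members and below 0 in both for 12.

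Some markers of heart muscle and of other cells differed between the ages as well. The 13 cardiac muscle markers had a median log2 fold change of 0.07 in wild type and -0.15 in knockout hearts, and none passed. At an unadjusted p below 0.05, 4 were higher in wild type, and 2 higher and 2 lower in knockout hearts. Their wild-type sums ran from 67697 to 70111 CPM at 2 months and from 73845 to 117865 CPM at 15 months. In knockout hearts the sums ran from 67212 to 85962 and from 71856 to 112530 CPM. The 9 fibroblast markers were all below 0 with age in wild type (median -0.73), and 1, Mfap5, fell (adjusted p 0.00582, edgeR). Their summed level ran from 521 to 1307 CPM at 2 months and from 330 to 740 CPM at 15 months. The 1307 CPM was that of wild-type replicate 1, the library with atrial and fat cell genes, against 807 and 521 CPM in replicates 2 and 3. In knockout hearts the fibroblast median was 0.50, none passed, and the sums ran from 523 to 674 and from 565 to 1011 CPM. The 9 endothelial markers had a median of 0.32 in wild type and 0.80 in knockout hearts, where 6 were higher at an unadjusted p below 0.05 and none passed the adjusted test; their knockout sums ran from 402 to 448 CPM at 2 months and from 393 to 1307 CPM at 15 months. None of these markers was at 0 in any library. Of 10 markers of skeletal muscle, liver and lung, the 2 that passed the filter had -1.40 and -3.00 in knockout hearts, and the second, the skeletal muscle gene Mylpf, fell (adjusted p 0.00913, edgeR). The 8 macrophage markers had a median of -0.38 in wild type, where 7 were below 0, and of 0.04 in knockout hearts, and none passed. Of 6 smooth muscle markers, 1 fell in knockout hearts (adjusted p 0.0372, edgeR) and 0 passed in wild type. The part of these markers in the members' age values was not tested.

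In wild-type hearts Bdh1 stood at 23.5, 19.6 and 54.5 CPM at 2 months and at 187, 119, 49.9 and 155 CPM at 15 months. In knockout hearts it stood at 19.9, 17.4 and 23.0 CPM at 2 months and at 73.5, 87.2, 130.2 and 97.4 CPM at 15 months. The means were 32.5 ± 19.2 (SD, n = 3) and 128 ± 58.8 CPM (SD, n = 4) in wild type and 20.1 ± 2.82 and 97.1 ± 24.2 CPM in knockout hearts. The knockout groups did not overlap, whereas the lowest 15-month wild-type heart (replicate 3) lay below the highest 2-month one (also replicate 3). The log2 fold change with age was 1.97 in wild type (SE 0.41, 3.92-fold, adjusted p 0.0375, edgeR quasi-likelihood test) and 2.27 in knockout hearts (SE 0.42, 4.82-fold, adjusted p 0.0165). The difference between these, 0.30 (SE 0.55, p 0.594 before adjustment), did not pass. Between genotypes Bdh1 did not pass at either age: -0.69 (SE 0.42) at 2 months and -0.39 (SE 0.36) at 15 months on the log2 scale. The 2-month value ran from -0.95 to -0.08 when 1 library was left out, nearest to 0 without wild-type replicate 3. The age call was lost under several alternatives, while the log2 fold change stayed between 1.71 and 2.59 in wild type and between 1.98 and 2.39 in knockout hearts. Leaving out each of the 14 libraries in turn ended the call 10 times in wild type and 4 times in knockout hearts, with adjusted p up to 0.187 and 0.101 (edgeR). Without wild-type replicate 1 at 2 months, the library with atrial and fat cell genes, it was 1.79 (SE 0.48, adjusted p 0.0576, edgeR) in wild type. With the length slope as a covariate it was 1.76 (SE 0.55, adjusted p 0.193) in wild type and 1.98 (SE 0.60, adjusted p 0.280) in knockout hearts by the same test.

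Oxct1, the enzyme that commits acetoacetate to oxidation by giving it coenzyme A, moved little. Its levels were 720.0, 733 and 901 CPM in wild type at 2 months, 732, 834 and 811 CPM in knockout hearts at 2 months, 975, 767, 804 and 887 CPM in wild type at 15 months and 790.3, 886, 817 and 875 CPM in knockout hearts at 15 months. All 4 groups overlapped, and the log2 fold change with age was 0.13 (SE 0.14) in wild type and 0.09 (SE 0.14) in knockout hearts, neither past the test.

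**Figure D2:**
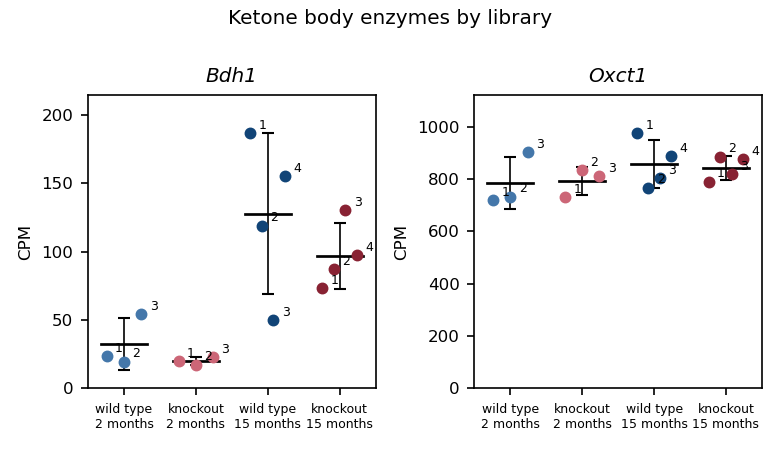
CPM of Bdh1 and Oxct1 in each library (points, with the replicate number beside each), by genotype and age. Horizontal lines are group means and bars are 1 SD. Bdh1 lies at 17.4 to 54.5 CPM at 2 months and at 49.9 to 187 CPM at 15 months, while the Oxct1 groups overlap.

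Bdh1 lies on chromosome 16 (GRCm38, 31422280 to 31458901, plus strand). Its 2 promoters in the RefSeq table of build GRCm38.p6 are printed because it was the member that rose with age; each stretch of 300 bases spans one annotated start site. They are followed by those of Acadm, the medium-chain dehydrogenase, and Ppargc1a, whose stretches hold both short motifs searched for (Acadm) or TGACG alone (Ppargc1a). Capitals mark AGGTCA, the half-site that nuclear receptors such as PPARα and ERRα bind, and TGACG, the start of the site bound by CREB, each on either strand.
Bdh1 start 1 (chr16:31422047-31422346, plus strand): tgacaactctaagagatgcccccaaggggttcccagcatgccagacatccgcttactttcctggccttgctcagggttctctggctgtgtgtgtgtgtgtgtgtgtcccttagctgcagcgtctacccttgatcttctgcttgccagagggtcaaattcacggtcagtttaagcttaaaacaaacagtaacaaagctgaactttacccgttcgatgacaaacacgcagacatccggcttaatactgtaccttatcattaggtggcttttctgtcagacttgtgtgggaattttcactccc
Bdh1 start 2 (chr16:31428503-31428802, plus strand): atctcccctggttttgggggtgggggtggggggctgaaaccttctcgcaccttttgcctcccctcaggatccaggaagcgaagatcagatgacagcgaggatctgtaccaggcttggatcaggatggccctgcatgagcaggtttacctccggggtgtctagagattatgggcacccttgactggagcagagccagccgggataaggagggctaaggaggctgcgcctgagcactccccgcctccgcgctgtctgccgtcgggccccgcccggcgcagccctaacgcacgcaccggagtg
Acadm (chr3:153944594-153944893, minus strand): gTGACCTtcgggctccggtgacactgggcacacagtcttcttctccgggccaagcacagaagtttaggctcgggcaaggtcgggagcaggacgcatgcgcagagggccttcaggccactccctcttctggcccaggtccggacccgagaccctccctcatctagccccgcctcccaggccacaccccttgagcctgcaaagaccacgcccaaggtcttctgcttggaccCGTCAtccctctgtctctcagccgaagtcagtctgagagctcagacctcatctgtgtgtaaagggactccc
Ppargc1a (chr5:51567676-51567975, minus strand): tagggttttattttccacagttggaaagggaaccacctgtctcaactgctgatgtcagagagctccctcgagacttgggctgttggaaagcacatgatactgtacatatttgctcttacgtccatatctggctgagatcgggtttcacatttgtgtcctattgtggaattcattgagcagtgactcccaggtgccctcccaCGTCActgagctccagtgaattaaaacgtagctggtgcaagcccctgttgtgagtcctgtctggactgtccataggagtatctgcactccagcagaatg
Neither Bdh1 stretch held AGGTCA or TGACG. Of the members, 32 had an entry, with 36 promoters in all. AGGTCA stood in 7 of them (19.4%, against 16.3% of 32851 promoters of the same length), those of Acacb, Acadm, Acadvl, Cd36, Cpt1a, Echs1 and Ucp3. The longer AAGGTCA, which contains it and is the extended half-site known for ERRα, stood in those of Acacb and Acadm (5.56% against 4.72%). The direct repeat AGGTCANAGGTCA, the consensus for PPARα with its partner RXR, stood in 0 of 36 member promoters and in 0.0396% of all. TGACG stood in 8 (22.2% against 20.8%). Decr1, Angptl4, Crat, Cpt1b, Acaa2, Lpl and Acot13 were not matched.

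Among the 5 genes of uptake and activation, none passed the test with age, and 4 had values above 0 in each genotype. Slc27a1, a fatty acid transport protein, stood at 90.7, 71.6 and 83.7 CPM in wild type and 84.3, 91.9 and 73.3 CPM in knockout hearts at 2 months. At 15 months it stood at 115, 111, 163 and 86.6 CPM in wild type and 105, 133, 160.0 and 159 CPM in knockout hearts. All 4 older knockout hearts lay above all 3 younger ones, while wild-type replicate 4 at 15 months lay within the younger range; the log2 fold change was 0.74 in knockout hearts (SE 0.20, adjusted p 0.0637) and 0.54 in wild type (SE 0.20, adjusted p 0.143, edgeR quasi-likelihood test). Lpl, the lipase, did not overlap between ages in either genotype: 3186 to 3915 CPM at 2 months against 4092 to 5912 CPM at 15 months in wild type, and 3680 to 3821 against 4001 to 6826 CPM in knockout hearts. Its log2 fold changes, 0.52 and 0.51 (SE 0.21 each), had adjusted p 0.159 and 0.141 by the edgeR quasi-likelihood test. Fabp3, the most abundant member, stood at 1592, 2519 and 2530 CPM in wild type and 2410, 1989 and 2172 CPM in knockout hearts at 2 months, and at 1866, 2186, 2019 and 1638 CPM and 2389, 1878, 1940 and 2091 CPM at 15 months. Its groups overlapped, with log2 fold changes of -0.20 (SE 0.18) in wild type and -0.08 (SE 0.18) in knockout hearts.

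Of the 5 genes of the carnitine shuttle, 4 had values above 0 with age in each genotype and none passed. Crat, which moves short acyl groups between coenzyme A and carnitine, stood at 308, 288 and 338 CPM in wild type at 2 months and at 457, 439, 492 and 346 CPM at 15 months, without overlap. In knockout hearts it stood at 314, 382 and 319 CPM and then at 337, 460.3, 451 and 421 CPM, with overlap. The log2 fold changes were 0.48 (SE 0.16, adjusted p 0.118) and 0.30 (SE 0.16, adjusted p 0.227, edgeR). Cpt1b, the enzyme at the entry of the shuttle in muscle, had 0.70 (SE 0.25) in wild type and 0.43 (SE 0.25) in knockout hearts, and Slc25a20, the carrier across the inner membrane, -0.09 and -0.12 (SE 0.15 each). The 2 genes that set malonyl-CoA, the inhibitor of that entry step, had opposite signs. Acacb, which makes malonyl-CoA at mitochondria, stood at 302, 225 and 302 CPM in wild type and 308, 371 and 312 CPM in knockout hearts at 2 months, and at 489, 348, 432 and 359 CPM and 279, 388, 577 and 415 CPM at 15 months. The wild-type ages did not overlap and the knockout ages did, with log2 fold changes of 0.56 and 0.33 (SE 0.22 each). Mlycd, which removes malonyl-CoA, had -0.17 and -0.19 (SE 0.15 each).

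The 9 genes of the beta-oxidation spiral had a median log2 fold change with age of 0.35 in wild type, where 7 were above 0, and of 0.26 in knockout hearts, where 8 were. None passed the adjusted test in either genotype, and at an unadjusted p below 0.05 there were 6 higher in wild type and 2 higher and 1 lower in knockout hearts. Over all genes 11.1% were higher by that rule in wild type, and 12.6% higher and 14.1% lower in knockout hearts. Of the 5 uptake and activation genes, 3 were higher by it in each genotype. Of the 5 shuttle genes, 2 were higher in wild type and 1 in knockout hearts. Hadha, which carries the hydratase and long-chain dehydrogenase steps of the trifunctional protein, stood at 754, 557 and 565 CPM in wild type at 2 months and at 1270, 692, 1350 and 986 CPM at 15 months. In knockout hearts it stood at 648, 929 and 731 CPM and then at 746, 1312, 1409 and 1412 CPM. In each genotype 1 older heart, wild-type replicate 2 or knockout replicate 1, lay within the younger range, and these are the pair with a negative length slope. The log2 fold changes were 0.78 (SE 0.26, adjusted p 0.119) and 0.67 (SE 0.26, adjusted p 0.129, edgeR). In wild type it was 0.23 (SE 0.15, adjusted p 0.548) with the length slope as a covariate, and it passed without both libraries of negative slope (0.94, SE 0.18, adjusted p 0.0109, edgeR) and with DESeq2 (adjusted p 0.0461). Hadhb, its partner subunit, transcribed from the neighbouring gene in the opposite direction, had 0.48 and 0.35 (SE 0.18 each).

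Acadl, the long-chain dehydrogenase and the most abundant gene of the spiral per kilobase, stood at 710.4, 696 and 692 CPM in wild type and 728, 824 and 710.2 CPM in knockout hearts at 2 months. In the older hearts it stood at 1013, 736, 916 and 912 CPM in wild type and 819, 901, 1057 and 1175 CPM in knockout hearts. The wild-type ages did not overlap, and in knockout hearts replicate 1 at 15 months lay just under replicate 2 at 2 months; the log2 fold changes were 0.35 and 0.39 (SE 0.16 each, adjusted p 0.190 and 0.136, edgeR). Acadm did not overlap between ages in either genotype, at 0.43 and 0.29 (SE 0.14 each). Echs1, the short-chain hydratase, had the opposite sign, -0.22 in wild type and -0.47 in knockout hearts (SE 0.21 each), and Hadh, the short-chain dehydrogenase, was near 0 (-0.01 and 0.09, SE 0.15 each).

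Members whose ages did not overlap, with the older hearts higher, were 9 of 39 (23.1%) in wild type, against 8.6% of all genes, and 6 of 39 (15.4%) in knockout hearts, against 8.83%. Lpl, Acadm and Etfa were among them in both genotypes. With the older hearts lower there was 1 in wild type, Acot13 (7.57% of all genes), and 3 in knockout hearts, Echs1, Etfb and Esrra (11.3% of all genes).

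The electron acceptors split by sign. Etfa, the alpha subunit of the electron transfer flavoprotein, stood at 326, 337 and 279 CPM in wild type and 299.5, 329 and 328 CPM in knockout hearts at 2 months, and at 392, 353, 361 and 372 CPM and 354, 329, 333 and 373 CPM at 15 months. Neither genotype overlapped between ages, in knockout hearts by a margin smaller than the digits shown, and the log2 fold changes were small, 0.24 and 0.12 (SE 0.12 each). Etfdh, which hands the electrons to ubiquinone, had 0.48 and 0.45 (SE 0.18 each), and Etfb, the beta subunit, -0.24 and -0.66 (SE 0.23 each), none past the test.

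Among the enzymes that handle double bonds, Ech1 stood at 809, 1119 and 940.3 CPM in wild type and 1134, 996 and 1011 CPM in knockout hearts at 2 months, and at 951, 1193, 1128 and 894 CPM and 1120, 890.1, 900.2 and 1144 CPM at 15 months. These groups overlapped, and the 4 genes (Eci1, Eci2, Decr1 and Ech1) lay between -0.26 and 0.12 on the log2 scale in both genotypes. Of the thioesterases, which release fatty acids from coenzyme A, Acot13 stood at 177, 351 and 274 CPM in wild type and 319, 225 and 277 CPM in knockout hearts at 2 months. The 15-month levels were 138, 173, 115 and 176 CPM in wild type and 248, 112, 102 and 166 CPM in knockout hearts. Every older wild-type heart lay below every younger one, and in knockout hearts replicate 1 at 15 months did not. Its log2 fold changes were -0.83 (SE 0.29, adjusted p 0.131) and -0.80 (SE 0.29, adjusted p 0.113, edgeR).

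The members' age values were also set out by exon length, without a test. The 19 members under the median exon length of 3836 bases had a median log2 fold change of 0.13 in wild type and 0.11 in knockout hearts. The 20 at or above it had 0.41 and 0.32. Above 0 lay 11 of the shorter and 13 of the longer members in wild type, and 11 and 15 in knockout hearts. Among the shorter members below 0 in both genotypes were Acot13, with an exon length of 744 bases, and Etfb, with 1164. With the length slope of each library as a covariate, the members' median was 0.14 in wild type and turned to -0.02 in knockout hearts, and the unadjusted count fell to 7 and 2 members. Leaving out knockout replicate 1 at 15 months alone, 12 members passed with age in knockout hearts: Acadl, Acot2, Acsl1, Bdh1, Cpt2, Etfdh, Hadha, Lpl and Slc27a1 higher, and Acot13, Esrra and Etfb lower, where 3523 of all genes were called. Without both 15-month libraries of negative slope (wild-type replicate 2 and knockout replicate 1, a choice made after the values were seen), 16 members passed in each genotype. They were 14 higher and 2 lower in wild type, and 12 higher and 4 lower in knockout hearts. The count over all genes went from 161 to 2627 in wild type and from 349 to 4232 in knockout hearts. Because slope and age were largely confounded, these fits cannot separate them. The part of the length slope in the age values of single members was not tested.

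**Figure D3:**
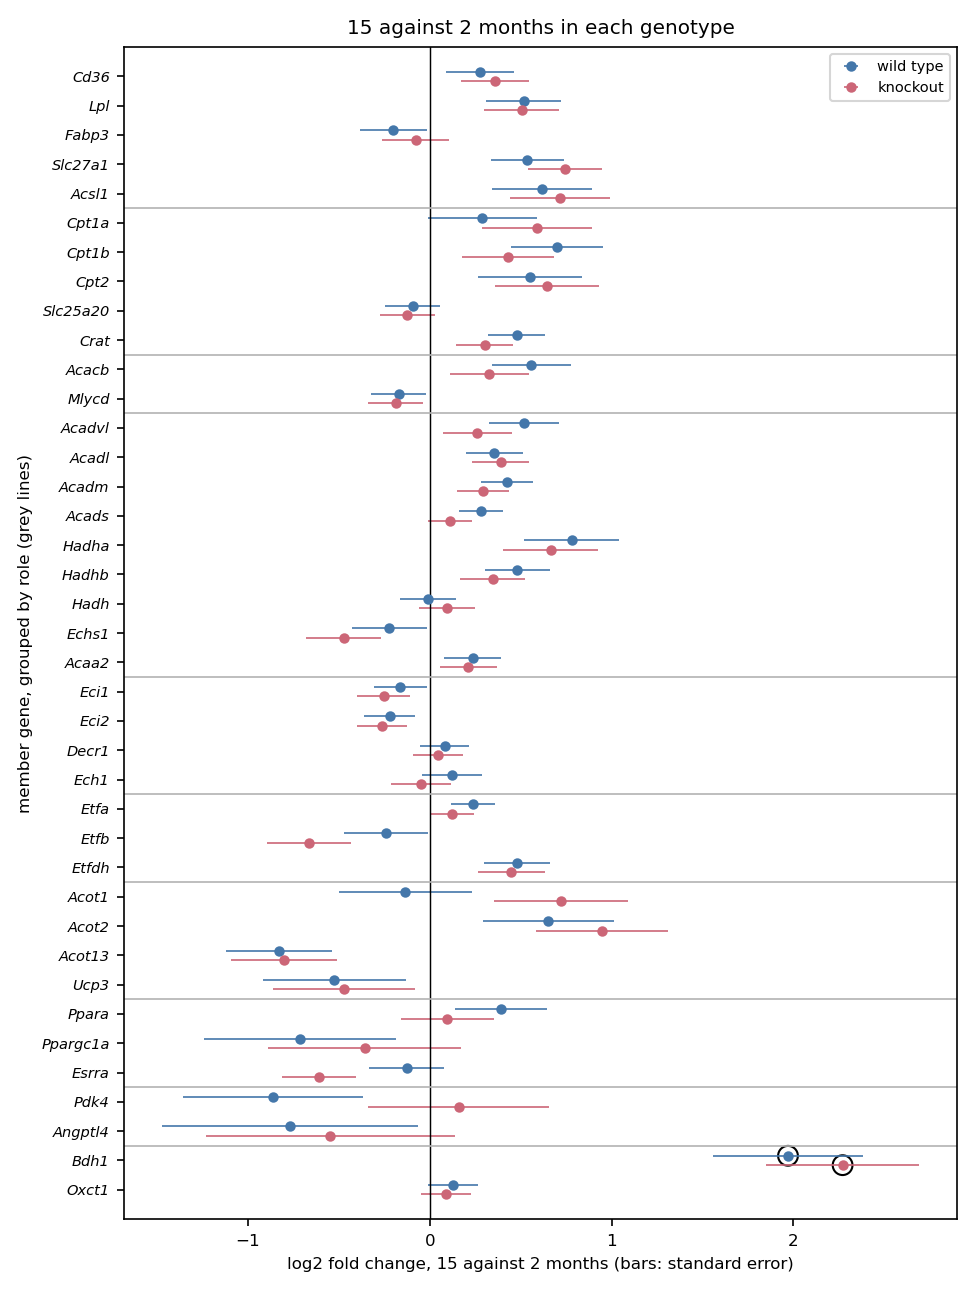
Log2 fold change of each member between 15 and 2 months, in wild-type (blue) and knockout (red) hearts, with bars of 1 standard error from the edgeR fit. Open circles mark an adjusted p below 0.05, which Bdh1 alone reached, at 1.97 and 2.27. Most uptake, shuttle and spiral genes lie to the right of 0 in both genotypes, and Acot13 lies at -0.83 and -0.80.

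None of the 3 regulators passed with age. Ppargc1a, the most abundant of them per kilobase, stood at 73.7, 62.5 and 338 CPM in wild type and 63.8, 85.0 and 246 CPM in knockout hearts at 2 months. At 15 months it stood at 121, 62.1, 94.9 and 107 CPM in wild type and 85.8, 112, 104 and 109 CPM in knockout hearts. Both libraries numbered 3 at 2 months lay above every other library. Ppara was also highest within its 2-month groups in the same libraries, at 43.6 CPM in wild type and 45.8 CPM in knockout hearts against 21.8 to 27.4 CPM in the other 4. With Lpl, these were the 3 of 39 members (7.69%) whose highest 2 values at 2 months were those of this pair, against 9.97% of 12723 genes.

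The same pair of libraries differed from the other 4 at 2 months in circadian clock genes. The clock gene Ciart stood at 20.2 CPM in wild-type and 16.3 CPM in knockout replicate 3 at 2 months, at 0.657 to 1.20 CPM in the other 4 libraries of that age and at 7.07 to 13.6 CPM at 15 months. The summed level of 10 clock genes was 538 and 557 CPM in that pair, 308 to 354 CPM in the other 4 and 519 to 687 CPM at 15 months. The sources used here give no time of day, and its part in these values was not tested. With all libraries the log2 fold change of Ppargc1a with age was -0.71 (SE 0.53) in wild type and -0.36 (SE 0.53) in knockout hearts. Without that pair, a choice made after the values were seen, it turned to 0.52 (SE 0.24) and 0.48 (SE 0.24), and Ppara went from 0.39 to 0.75 in wild type and from 0.10 to 0.46 in knockout hearts, none past the adjusted test. Bdh1 passed without that pair too, at 2.59 (SE 0.45, adjusted p 0.0322) and 2.39 (SE 0.44, adjusted p 0.0403, edgeR). The 2-month libraries left in these fits had clock sums of 308 to 354 CPM, all below the 519 to 687 CPM at 15 months. Age and clock level therefore cannot be told apart in them. With all libraries age and clock level were confounded in part, as only the pair numbered 3 at 2 months lay among the 15-month sums. In that fit 9 of 10 clock genes lay above 0 with age in each genotype. One gene (1) rose in each, with adjusted p 0.0374 in wild type and 0.0264 in knockout hearts (edgeR). The part of clock level in the members' age values was not tested.

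The second comparison, knockout against wild type at the same age, asked what loss of p62 in cardiac muscle cells did to these genes. No member passed the adjusted test at 2 months, at 15 months or in the mean over both ages (edgeR quasi-likelihood test, 0 of 39 in each). Over all genes 0.00644% were called in each of these comparisons, which is Sqstm1 alone. DESeq2 and limma voom called 0 members in each as well. At an unadjusted p below 0.05 there were 0 members at 2 months, 3 at 15 months (Pdk4 and Angptl4 higher, Esrra lower) and 2 in the mean (Angptl4 and Ucp3, both higher), where 3.18%, 3.97% and 3.26% of all genes met that rule. The members' median log2 fold change was 0.12 at 2 months, 0.09 at 15 months and 0.08 in the mean, against 0.00, 0.01 and 0.00 over all genes. Leaving out 1 library at a time moved it to between 0.04 and 0.16 at 2 months (lowest without knockout replicate 2) and between 0.02 and 0.11 at 15 months (lowest without knockout replicate 4). At 2 months 30 of 39 members lay above 0 (76.9%, against 49.7% of all genes) and at 15 months 25 (64.1%, against 51.7%); 21 lay above 0 at both ages and 5 below 0 at both. Without wild-type replicate 1 at 2 months, the library with atrial and fat cell genes, 24 members lay above 0 at that age, with a median of 0.07. Of the 13 cardiac muscle markers, 11 lay above 0 at 2 months (84.6%, median 0.16) and 4 at 15 months (30.8%, median -0.04). All 9 fibroblast markers lay below 0 at 2 months (median -0.71) and above 0 at 15 months (median 0.53). None of these markers passed the adjusted test, and their part in the members' genotype values was not tested. Only Acacb and Hadhb had all knockout hearts above all wild-type hearts at 2 months (5.13% of members, against 4.43% of all genes) and none had them all below (3.72%). At 15 months every member overlapped between genotypes, as did all but 0.76% and 1.23% of all genes, counted as higher and lower.

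**Figure D4:**
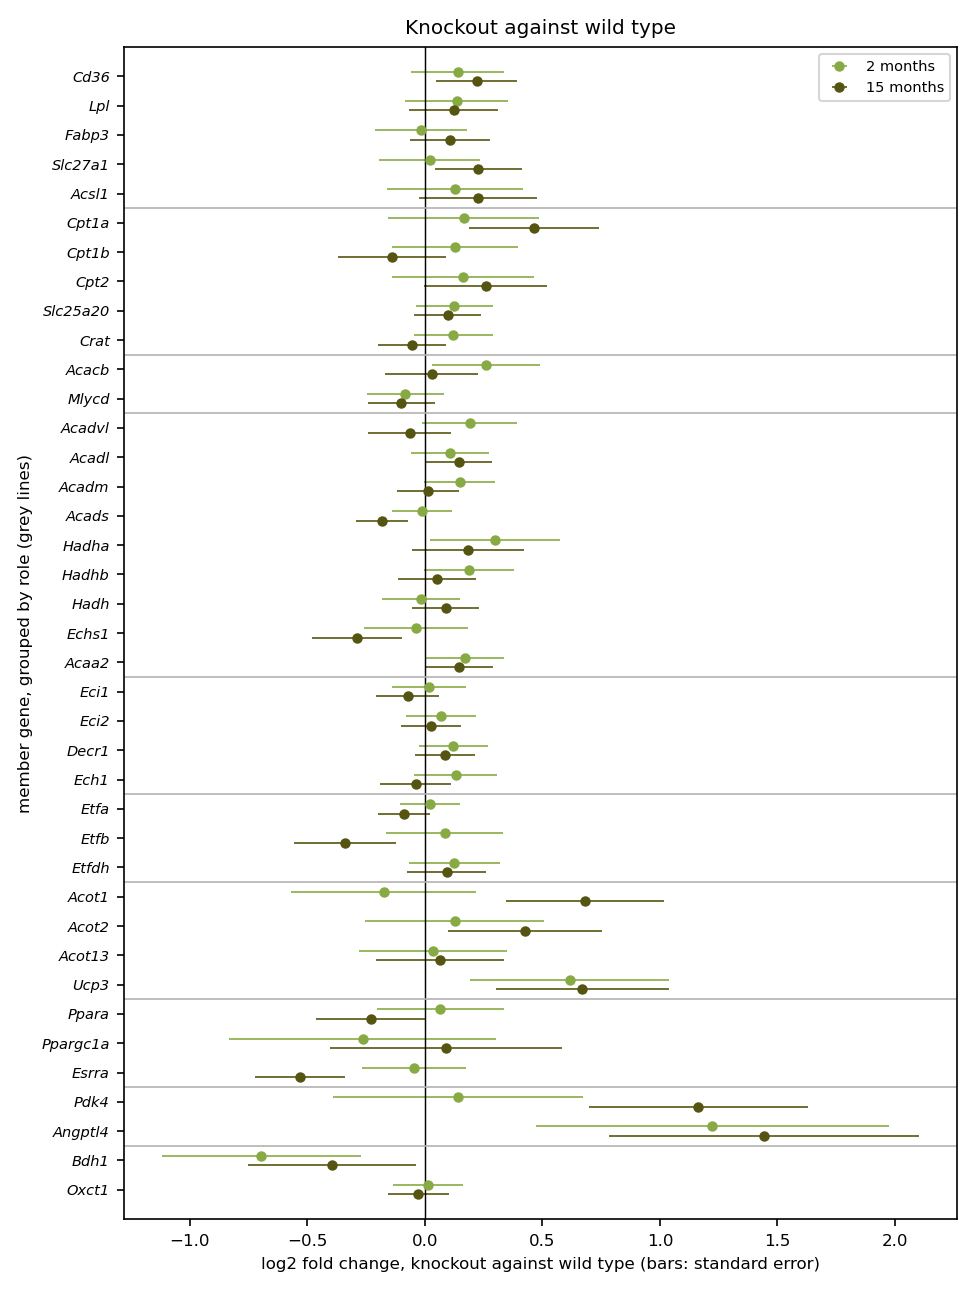
Log2 fold change of each member between knockout and wild-type hearts, at 2 months (light green) and 15 months (dark green), with bars of 1 standard error from the edgeR fit. No member reached an adjusted p below 0.05. Most enzymes lie within 0.3 of 0, Angptl4 lies at 1.22 and 1.44, and Pdk4 at 0.14 and 1.16.

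At 15 months the largest genotype values were those of Angptl4 and Pdk4, and the hearts of a group differed widely in both. Pdk4, the kinase that shuts off pyruvate dehydrogenase when fat is burned, stood at 943, 352 and 1001 CPM in wild type and 935, 818 and 781 CPM in knockout hearts at 2 months. In the older hearts it stood at 462, 272, 714 and 236 CPM in wild type and 372, 534, 1773 and 1095 CPM in knockout hearts. The genotypes overlapped at both ages, and at 15 months knockout replicates 3 and 4 lay above all 4 wild-type hearts. The log2 fold change at 15 months was 1.16 (SE 0.47, unadjusted p 0.0252, adjusted p 0.999, edgeR quasi-likelihood test), and it was 0.67 without knockout replicate 3 and 1.55 without wild-type replicate 3. At 2 months it was 0.14 (SE 0.53), and the difference between the ages, 1.02 (SE 0.71), did not pass.

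Angptl4, the secreted inhibitor of lipoprotein lipase, stood at 13.8, 3.76 and 9.24 CPM in wild type and 38.1, 13.3 and 11.8 CPM in knockout hearts at 2 months. The 15-month levels were 7.99, 3.50, 7.28 and 2.32 CPM in wild type and 3.67, 4.80, 29.3 and 19.4 CPM in knockout hearts. High values came from knockout replicate 1 at 2 months and knockout replicates 3 and 4 at 15 months, and the genotypes overlapped at both ages. The log2 fold changes were 1.22 (SE 0.75) at 2 months, 1.44 (SE 0.66) at 15 months and 1.33 (SE 0.50, unadjusted p 0.0188, adjusted p 0.999, edgeR) in the mean. Leaving out 1 library at a time gave 0.82 to 1.75 at 15 months and 0.48 to 1.68 at 2 months.

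Ucp3, the muscle uncoupling protein whose level follows fatty acid supply, stood at 82.2, 29.4 and 64.1 CPM in wild type and 111, 68.7 and 90.3 CPM in knockout hearts at 2 months. At 15 months it stood at 39.3, 30.6, 68.9 and 24.1 CPM and at 32.7, 63.4, 91.3 and 71.8 CPM. The genotypes overlapped at both ages, with log2 fold changes of 0.62 (SE 0.42), 0.67 (SE 0.37) and, in the mean, 0.64 (SE 0.28, unadjusted p 0.0369, adjusted p 0.999, edgeR). The 2-month value was 0.30 without wild-type replicate 2 and 0.94 without wild-type replicate 1. Replicate 2 was the lowest wild-type heart at 2 months for Pdk4, Angptl4 and Ucp3 alike, and replicate 4 at 15 months.

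Acot1, the cytosolic thioesterase, stood at 13.998, 12.2 and 10.1 CPM in wild type and 10.7, 13.3 and 8.17 CPM in knockout hearts at 2 months. In the older hearts it stood at 13.9, 9.89, 13.02 and 7.19 CPM and at 8.47, 10.2, 29.6 and 22.04 CPM. Knockout replicates 3 and 4 lay above all other libraries; the log2 fold change at 15 months was 0.68 (SE 0.34) and the difference from 2 months 0.86 (SE 0.52, unadjusted p 0.119, edgeR). Acot2, its mitochondrial neighbour on chromosome 12, stood at 54.5, 76.3, 191 and 143 CPM in the same 4 knockout hearts and at 117, 47.0, 100.3 and 81.4 CPM in wild type of that age. Acot1 and Acot2 values are uncertain where reads could fit both: 527 stretches of 50 bases are shared between their main transcripts, 23.7% of those of Acot1 and 24.5% of those of Acot2.

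Esrra had the opposite sign. It stood at 70.4, 99.99 and 96.3 CPM in wild type and 83.8, 80.5 and 93.8 CPM in knockout hearts at 2 months, and at 71.8, 119, 67.9 and 67.4 CPM and 70.8, 47.7, 53.2 and 54.1 CPM at 15 months. Knockout replicate 1 lay among the wild-type hearts and the other 3 knockout hearts below them. The log2 fold change at 15 months was -0.53 (SE 0.19, unadjusted p 0.0147, adjusted p 0.999, edgeR), and it was -0.29 without wild-type replicate 2, the highest of that group. With age it was -0.61 in knockout hearts (SE 0.20, adjusted p 0.0971, edgeR), where the ages did not overlap, and -0.13 (SE 0.21) in wild type. The knockout value was -0.16 (SE 0.17, adjusted p 0.833) with the length slope as a covariate. It passed without knockout replicate 1 at 15 months (-0.74, adjusted p 0.0225), without wild-type replicate 2 at 15 months (-0.61, adjusted p 0.0447) and without both (-0.74, adjusted p 0.00325, edgeR). The difference between the ages in the knockout effect, -0.48 (SE 0.29), did not pass.

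**Figure D5:**
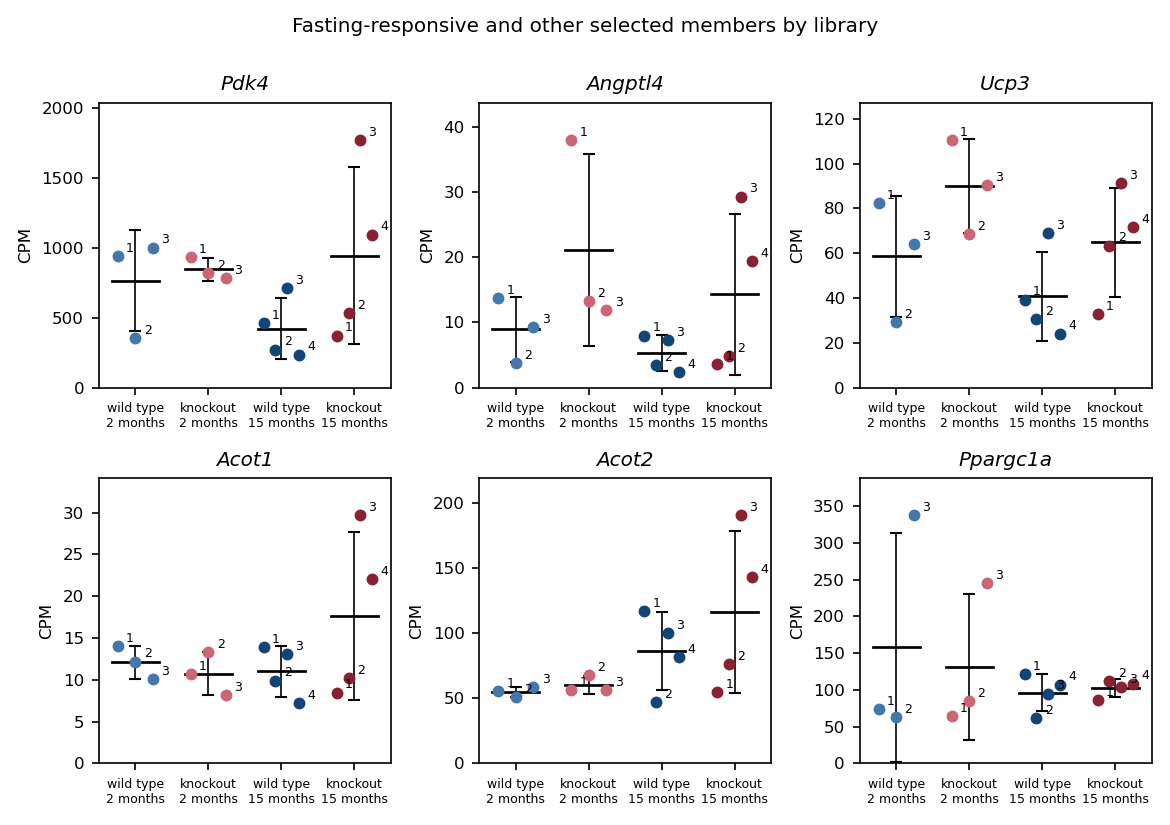
CPM of Pdk4, Angptl4, Ucp3, Acot1, Acot2 and Ppargc1a in each library (points, with the replicate number beside each), by genotype and age, with group means (lines) and bars of 1 SD. Knockout replicates 3 and 4 at 15 months lie highest of that age for the first 5 genes. For Ppargc1a the highest points are the libraries numbered 3 at 2 months, at 338 and 246 CPM.

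The 15-month knockout group was uneven across the list. Replicates 3 and 4 held the highest 2 values of the 8 hearts of that age for 13 of 39 members (33.3%): Cd36, Lpl, Acsl1, Cpt2, Acadl, Hadha, Decr1, Etfdh, Acot1, Acot2, Ucp3, Pdk4 and Angptl4. Among 12723 genes with a mean of at least 1 CPM, 6.00% did so. These libraries were singled out after their values were seen, and the count is a description. The summed cardiac muscle markers stood at 112530 and 105239 CPM in replicates 3 and 4, against 71856 and 87131 CPM in replicates 1 and 2 and 73845 to 117865 CPM in wild type, a range that holds the values of replicates 3 and 4. The summed 9 endothelial markers stood at 1307 and 791 CPM, against 393 and 870.3 CPM in replicates 1 and 2 and 416 to 667 CPM in wild type. The length slope was 0.189 and 0.076, against -0.072 and 0.125. Replicate 3 was the highest of the 8 hearts in both of the last measures, and replicate 4 lay below replicate 2 in both. The part of these markers and of the length slope in the values of the 13 genes was not tested.

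The third comparison was the difference of the knockout effect between the ages. No member passed (edgeR quasi-likelihood test; 0 of 39 also by DESeq2 and limma voom, and 0 at an unadjusted p below 0.05), where 0% of all genes were called and 3.72% met the unadjusted rule. The members' median difference was -0.03, against 0.01 over all genes, and the largest values were those of Pdk4 and Acot1 given above.

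A further 97 genes of lipid and ketone metabolism were examined beside the members, of which 90 passed the filter. With age 1 of 90 rose in knockout hearts (1.11%, against 2.25% of all genes called) and 0 in wild type (against 1.04%). None passed between genotypes or in the difference (edgeR quasi-likelihood test), where 0.00644% and 0% of all genes were called. The gene that rose was Acsl6, an acyl-CoA synthetase best known from brain, which stood at 8.49, 7.71 and 7.28 CPM in knockout hearts at 2 months and at 24.9, 25.0, 16.9 and 13.97 CPM at 15 months. In wild type it stood at 14.6, 10.7 and 8.12 CPM and then at 19.3, 18.3, 25.4 and 18.2 CPM. The ages did not overlap in either genotype, with log2 fold changes of 1.37 (SE 0.24, adjusted p 0.0114) and 0.87 (SE 0.23, adjusted p 0.0790, edgeR). Acad11, a member of the acyl-CoA dehydrogenase family, had 1.13 in wild type (SE 0.26, adjusted p 0.0557) and 0.83 in knockout hearts (SE 0.26, adjusted p 0.0858, edgeR).

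At an unadjusted p below 0.05, 24 of the 90 were higher and 5 lower (Fabp5, Gpihbp1, Dbi, Acot9 and Sesn1) with age in wild type (26.7% and 5.56%, against 11.1% and 12.7% of all genes), and 19 and 10 in knockout hearts (21.1% and 11.1%, against 12.6% and 14.1%). Between genotypes there was 1 higher at 2 months (Esrrb, a nuclear receptor related to ERRα, 0.40, SE 0.16), 1 higher (Ehhadh) and 3 lower (Rxrb, Acot8 and Acaa1a) at 15 months, and 1 higher in the mean (Txnip, an inhibitor of glucose uptake, 0.85, SE 0.36), where 3.18%, 3.97% and 3.26% of all genes met that rule. At 15 months the 2 smallest p-values were those of Rxrb, a partner of PPARα (-0.41, SE 0.14), and Acot8, a peroxisomal thioesterase (-0.58, SE 0.21). In the mean the next was Ehhadh, the peroxisomal bifunctional enzyme (0.45, SE 0.21). In the difference between ages the smallest were Esrrb (-0.56, SE 0.22) and Slc27a3 (1.64, SE 0.71), followed by Acaa1a (-0.56, SE 0.26). Genes outside the naming rule were named here after their values were seen. Of these genes with an unadjusted p below 0.05, none but Acsl6 passed the adjusted test.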

How the data were processed

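RNA from whole hearts was made into 14 libraries with the Illumina TruSeq Stranded kit with Ribo-Zero Gold, per the labels. The authors deposited 1 table of raw read counts per gene, and every column was matched to a sample by its title (0 columns left over). The submitters' processing notes name build GRCm38, the counter featureCounts 1.6.3, the aligner STAR 2.7.3a, the trimmer cutadapt 1.16 and also DESeq2 1.26.0. Not given in the sources used here: annotation release, strand setting, handling of multiply mapped reads. Of 55487 identifiers, 55227 matched GENCODE M21, the source of symbols and exon lengths.

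The deposited counts were tested with edgeR 4.0.16 (R 4.3.3): filterByExpr by group (15528 genes kept), TMM scaling, 1 mean per group over all 14 libraries, robust quasi-likelihood fits, Benjamini-Hochberg over all genes tested and a threshold of 0.05. The comparisons share libraries, so they are not independent of each other. The SE is the log2 fold change divided by the square root of F. Replicate libraries differed beyond counting noise (chi-square per degree of freedom at least 28.6 within a group). On simulated data for knockout against wild type at 15 months (15528 genes), the test recovered 62 of 100 genes changed 2-fold and 97 of 100 changed 4-fold, with 6 false calls. The simulated counts were drawn independently around 1 mean per gene, and only genes above a mean of 1 CPM were changed. They held no library-wide differences such as the length slope, so recovery in the real data may differ.

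Members, gene lists and tests were chosen with earlier results of these data known. Values in every library are given for members past the threshold, among the 3 smallest p-values of a comparison, highest per kilobase in their role group, or without overlap between genotypes in the same direction at both ages; of the other genes of lipid and ketone metabolism, those past the threshold or with the 2 smallest p-values were named. Lpl and Acot2 values, the 15-month knockout pattern and the clock gene Ciart were added after the values were seen. Alternatives were other scaling, filters, DESeq2 1.42.0, limma 3.58.1, a replicate block, fits without the other groups, removal of mitochondrially encoded genes, a length slope covariate and leaving out libraries.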

Additional observations from a re-analysis of the deposited data

Results flagged for a closer look

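Over 39 members and the 2 groups of 4 libraries, 78 sets of values were examined for a library far from the other 3, and 3 were found; chance alone marks about 1 set in 20. Hadha stood at 746 CPM in knockout replicate 1 at 15 months, against 1312 to 1412 CPM in the other 3. Etfb stood at 199.7 CPM in wild-type replicate 2 at 15 months, against 107 to 111 CPM. Esrra stood at 119 CPM in the same library, against 67.4 to 71.8 CPM. These are the 2 libraries of that age with a negative length slope, and the part of the slope in these values was not tested.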

How the results depend on the processing

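The members called between genotypes and in the difference between ages were 0 under every alternative run. With age, the count of 1 called in wild type (Bdh1) became 4 with DESeq2 (Acadm, Bdh1, Crat and Hadha), and 0 without a filter on low counts, with only the groups compared, with a replicate block and with the length slope as a covariate; leaving out 1 library at a time gave 0 to 1. In knockout hearts the count of 1 became 2 with DESeq2 (Bdh1 and Slc27a1), was 1 without a filter on low counts but then Slc27a1 and not Bdh1, and became 0 with a replicate block and with the length slope; leaving out 1 library at a time gave 0 to 12, the highest without knockout replicate 1 at 15 months. Without the 2 libraries of negative length slope at 15 months, added after seeing the data, 16 members were called in each genotype. Of these, 14 were higher and 2 lower in wild type, and 12 were higher and 4 lower in knockout hearts. The same fit called 2627 of 15505 genes in wild type and 4232 in knockout hearts. Over all genes tested, the calls with age went from 161 to 1100 in wild type and from 349 to 1622 in knockout hearts with DESeq2, to 55 and 70 with the replicate block, to 86 and 134 with only the groups compared, to 125 and 83 with the length slope, to 38 to 796 and 49 to 3523 leaving out 1 library, and to 43 and 69 without both libraries numbered 3 at 2 months. Between genotypes DESeq2 called 7 genes at each age and 5 in the mean, against 1, and the other alternatives 1 to 4. The members' median kept its sign except with age in knockout hearts, where the length slope turned it from 0.16 to -0.02, and in the difference between ages, where leaving out 1 library gave -0.09 to 0.02. Replicate numbers gave no regular pairing of the libraries: correlations of the deviations of same-numbered libraries ran from -0.493 to 0.376, and 3 of 7 were above 0.1. The highest of these was that of the pair numbered 3 at 2 months. Deviations from a mean of 3 or 4 libraries are tied to each other, so this check cannot settle whether single libraries were paired. With 3 or 4 libraries per group, standard errors of members between genotypes at 2 or 15 months ran from 0.11 to 0.75 on the log2 scale. Differences of that size are not resolved.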
